A study of Mus musculus with 7 samples.

Results

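The cytosolic ribosomal protein genes of the mouse kidney were taken as all genes whose symbol begins with Rpl or Rps, leaving out the Rps6k kinases and symbols that contain -ps, which mark pseudogenes. The rule found 85 of the 16272 genes in the table, 51 with Rpl and 34 with Rps symbols. It used names only and no measured value. The 85 genes held 13537395 of 122137509 unique molecular identifiers (UMIs, each tagging 1 captured RNA molecule), or 11.1%. In GENCODE vM21 (GRCm38) all 85 symbols had a position, on 19 chromosomes, with 14 on chromosome 7. That annotation lists 84 of them as protein-coding and Rpl6l as a processed pseudogene.

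The study profiled single cells of whole kidneys from 7 healthy C57BL/6 mice aged 4 to 8 weeks, on the 10x Chromium 3′ platform. Of these mice 4 were wild type (WT), and 3 carried a Cre transgene with the mTmG membrane reporter, as Cdh16CremTmG, SclCremTmG and Nphs2CremTmG. The labels name no treatment. The table holds 43745 of the 57979 cells stated, each with the authors' cluster number from 1 to 16 and a barcode that ends in a library number from 1 to 7. The sources used here do not say which number belongs to which mouse. All 7 libraries were therefore treated as kidneys of a single group, with no comparison of wild-type and reporter mice.

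Ribosomal proteins join ribosomal RNA to form the small (Rps) and large (Rpl) subunits of the cytosolic ribosome, which translates messenger RNA. Rplp0, Rplp1 and Rplp2 form the stalk of the large subunit, which recruits elongation factors. Messenger RNAs of ribosomal proteins typically begin with a cytosine and a run of pyrimidines, the 5′ terminal oligopyrimidine (TOP) motif, through which growth signals control their translation as a group. Some members have paralogs, such as Rps27l for Rps27, Rpl22l1 for Rpl22, Rpl36al for Rpl36a and the muscle gene Rpl3l for Rpl3. Rps19bp1 fits the symbol rule but encodes a protein that binds Rps19.

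The annotated start sites of some members carry the sequence that members are known to share. RefSeq windows (GRCm38.p6, 250 bases before to 50 after an annotated start) were matched for 64 of 85 members. The windows below run from 40 bases before the start to 20 bases from it onward, read along the gene's own strand. Capitals mark a C followed by at least 4 pyrimidines, at the start or within 10 bases of it. The set shows 4 members with the run at the start itself, 2 paralogs that carry it nearby, and 2 members without it.
Rps27, chr3:90213629-90213688, minus strand: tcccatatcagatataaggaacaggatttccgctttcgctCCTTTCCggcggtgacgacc
Rps15a, chr7:118116128-118116187, minus strand: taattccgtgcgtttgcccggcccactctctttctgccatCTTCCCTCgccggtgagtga
Rps18, chr17:33955646-33955705, minus strand: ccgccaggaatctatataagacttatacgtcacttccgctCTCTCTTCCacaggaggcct
Rpl15, chr14:18270967-18271026, minus strand: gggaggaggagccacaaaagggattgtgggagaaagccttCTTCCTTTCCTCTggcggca
Rps27l, chr9:66946046-66946105, plus strand: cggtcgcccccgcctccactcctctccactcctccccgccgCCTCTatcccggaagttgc
Rpl22l1, chr3:28805468-28805527, plus strand: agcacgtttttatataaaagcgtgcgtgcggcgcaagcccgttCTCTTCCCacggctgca
Rps19bp1, chr15:80264287-80264346, minus strand: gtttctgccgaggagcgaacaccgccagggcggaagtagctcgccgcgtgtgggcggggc
Rpl7l1, chr17:46782637-46782696, minus strand: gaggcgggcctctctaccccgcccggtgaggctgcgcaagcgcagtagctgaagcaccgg

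The run lay exactly at the annotated start in 13 of 64 members (20.3%), against 2.40% of 11796 genes of the table with a window. Within 10 bases the shares were 54.7% and 32.5%. The hexamer TTCCGG, on either strand of the 300-base window, was in 50% of members and 25.3% of genes. AAGATGGC was in 7.81% against 4.10%. The shares were alike for GGGCGG (60.9% and 60.1%), CACGTG (7.81% and 9.66%) and TATAAA (9.38% and 7.66%). These matches are descriptions of annotated windows, and a start placed a few bases off moves the first of them.

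The clusters bore the fixed markers of their cell types, and a name ending in -like rests on those markers. Every listed marker that was measured peaked in its own cluster for endothelial (cluster 1), podocyte (2), proximal tubule (3), loop of Henle (4), distal convoluted tubule (5), principal (6), monocyte (10), macrophage (11), neutrophil (12), B lymphocyte (13), T lymphocyte (14) and natural killer cells (15). Of 6 intercalated cell markers, 4 peaked in cluster 7. Cluster 8 held both principal and intercalated markers, and clusters 9 and 16 held proliferation genes beside proximal tubule and T lymphocyte markers, so these 3 stay unnamed. The authors made the clusters from these same cells, so a contrast of clusters is not independent of the genes compared. Libraries held 1383 to 14136 cells and 4217169 to 49997616 UMIs, with 707 to 15000 UMIs per cell. In all, 1962 cells (4.49%) share a barcode sequence with a cell of another library. Leaving these out moved no cluster's share by more than the SD over libraries.

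T and B lymphocyte-like cells gave the largest parts of their UMIs to ribosomal protein genes, and distal convoluted tubule-like cells the smallest. The summed share was 32.2% ± 2.78 (SD, n = 7 libraries) in T lymphocyte-like cells, 27.0% ± 4.84 (n = 7) in B lymphocyte-like cells and 23.0% ± 1.14 (n = 7) in natural killer-like cells. Monocyte-like cells were at 23.9% ± 2.76 (n = 7) and macrophage-like cells at 16.8% ± 2.39 (n = 7). Cluster 16 stood at 25.6% ± 2.07 (n = 3). Neutrophil-like cells, which are also myeloid, held 10.2% ± 4.23 (n = 5). Single neutrophil-like cells were unevenly spread around this mean, with a median of 5.86%. Of them 73.0% lay under 10% and 14.9% over 20%.

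**Figure D1:**
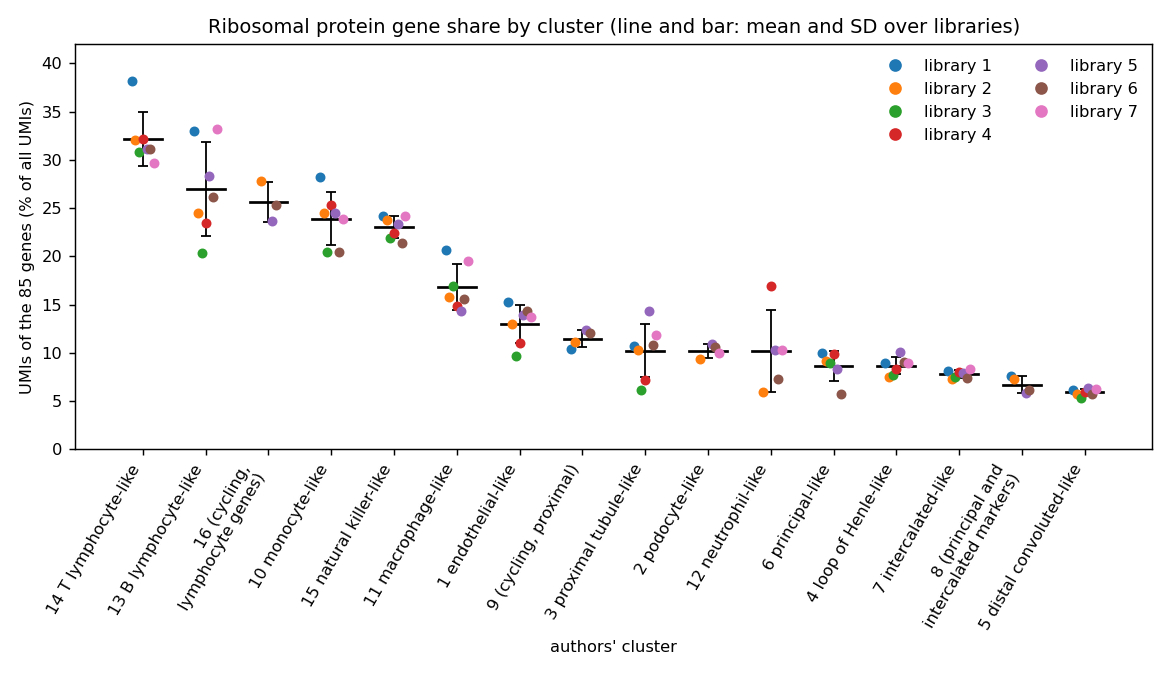
Share of UMIs held by the 85 genes (y axis, percent) in each of the authors' 16 clusters (x axis, ordered by mean), with 1 point per library, a line at the mean and a bar for the SD. T lymphocyte-like cells stand highest at 32.2% and distal convoluted tubule-like cells lowest at 5.93%.

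Among cells of the kidney proper, endothelial-like cells had the highest mean share, 12.97% ± 1.99 (n = 7). Cycling cluster 9 was at 11.5% ± 0.896 (n = 4), podocyte-like cells at 10.2% ± 0.699 (n = 4) and proximal tubule-like cells at 10.2% ± 2.74 (n = 7). Principal-like cells (8.66% ± 1.57, n = 6) and loop of Henle-like cells (8.65% ± 0.884, n = 7) did not differ beyond their spread. Intercalated-like cells were at 7.78% ± 0.414 (n = 7), cluster 8 at 6.68% ± 0.871 (n = 4) and distal convoluted tubule-like cells at 5.93% ± 0.348 (n = 7). Of the 15 pairs of neighbours in this order, 3 had the same direction in all 7 libraries, namely natural killer-like above macrophage-like, macrophage-like above endothelial-like, and loop of Henle-like above intercalated-like. Each gave an exact two-sided sign-flip permutation p = 0.015625, the smallest possible, and an adjusted p = 0.0781 over the 15, so none passed 0.05.

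The share of mitochondrially encoded RNA moved the other way, from 30.4% in distal convoluted tubule-like cells to 9.91% in T lymphocyte-like cells. With the UMIs of nuclear genes as the denominator, these clusters stood at 8.53% ± 0.570 and 35.7% ± 2.87. Single cells within a cluster spread widely. In T lymphocyte-like cells the middle 80% of cells ran from 19.3% to 48.4%, and in proximal tubule-like cells from 4.198% to 20.3%. With the cells of a cluster split into 4 bins of depth, the shallowest T lymphocyte-like cells held 31.7% at a median of 1260 UMIs. The deepest distal convoluted tubule-like cells held 6.34% at a median of 5069.5 UMIs.

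The first comparison set the mean of the B lymphocyte-, T lymphocyte- and natural killer-like clusters against the mean of the 5 tubule and collecting duct clusters (3 to 7). The lymphoid share was 27.1% ± 2.52 and the tubule share 8.15% ± 0.804 over the 6 libraries with all 8 clusters. The difference in libraries 1 to 6 was 23.0, 18.8, 17.2, 18.1, 18.2 and 18.4 percentage points, with a mean of 19.0 ± 2.04. All 6 libraries were higher, and the exact two-sided sign-flip permutation test gave p = 0.03125 (0.0938 adjusted over 6 comparisons). With 6 libraries that is the smallest p possible, and none of the 6 comparisons of shares passed 0.05 after adjustment.

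Gene by gene, 81 of the 84 members tested were higher in lymphoid clusters and 1 was lower, at an adjusted p under 0.05 (edgeR quasi-likelihood test on counts summed per library and cluster). Of all 7952 genes tested, 26.3% were higher and 40.1% lower. The median log2 fold change was 1.59 for members and -0.24 for all genes. All 43 large subunit, 31 small subunit and 3 stalk genes other than paralogs were higher, with medians of 1.43, 1.78 and 1.65. Rpl12, a protein near the stalk base, changed most (log2 2.35 ± 0.088 SE, edgeR adjusted p = 4.3e-46). Rps24 (2.29), Rpl13a (2.25), Rps27rt (2.25) and Rps27 (2.22) were among those that came next. Rps27rt is a near copy of Rps27, so reads may have been split between these genes and its value is uncertain.

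Rpl12 was at 3136, 2652, 2482, 3196, 2329, 3400 and 2735 CPM (the gene's UMIs scaled to 1e6 UMIs in the sum) in T lymphocyte-like cells of libraries 1 to 7. In proximal tubule-like cells the same libraries had 364, 379, 188, 257, 562, 588 and 527 CPM. The ranges lie far apart, and every T lymphocyte-like value exceeds every proximal value. Over all clusters, 62 of 85 members peaked in cluster 14 and 57 were lowest in cluster 5. For the 77 members other than paralogs and Rps19bp1, the highest cluster mean was 2.84 to 11.4 times the lowest, with a median of 5.68.

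**Figure D2:**
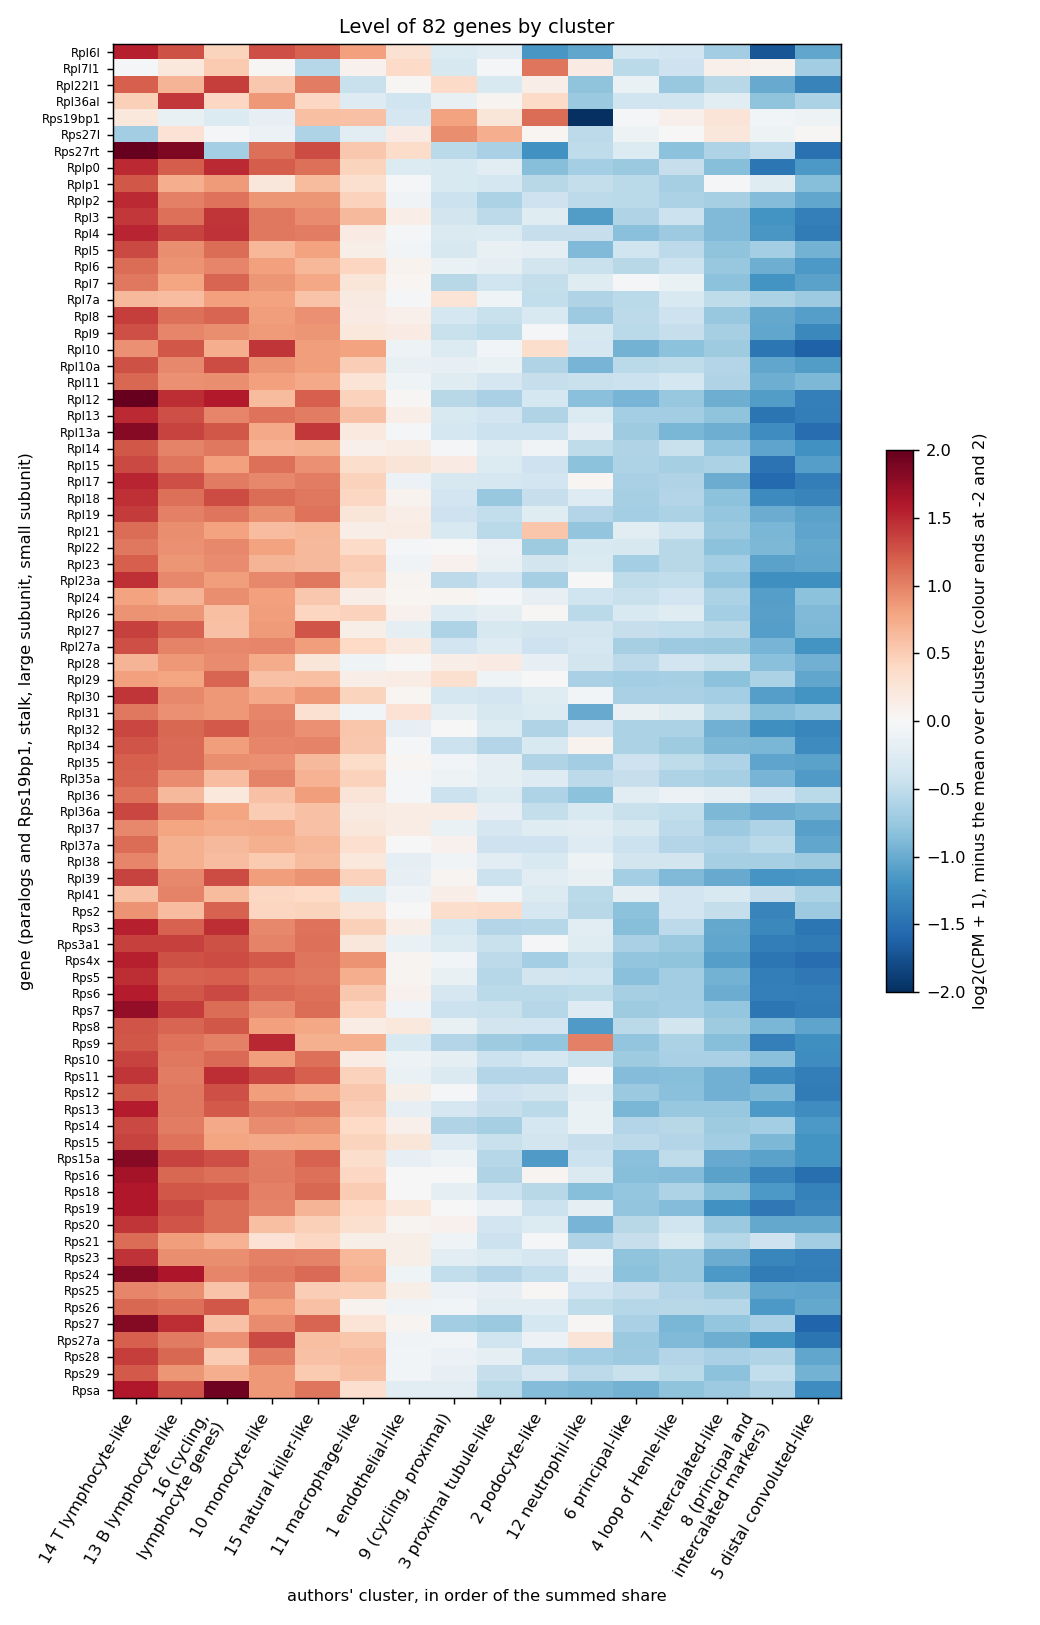
Level of 82 members (rows) in 16 clusters (columns, ordered by summed share) as log2(CPM + 1) minus the gene's mean over clusters, red for higher and blue for lower. Most rows pass from red in the lymphocyte-like clusters to blue in the distal convoluted tubule-like cluster, while Rps27l does not.

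Rps27l was the 1 of the 84 members lower in lymphoid clusters (log2 -0.61 ± 0.101 SE, edgeR adjusted p = 7.9e-08). This gene at chr9:66946086-66949516 (plus strand) encodes a paralog of Rps27 and is a known p53 target. In T lymphocyte-like cells it was at 218, 321, 306, 305, 365, 397 and 272 CPM in libraries 1 to 7. In proximal tubule-like cells it was at 800, 943, 853, 1022, 813, 770 and 670. The values of these cell types do not overlap. Natural killer-like cells were also low, at a mean of 328 CPM. B lymphocyte-like cells varied more, from 201 to 944. Their mean of 620 ± 273 CPM lay above the means of clusters 4 to 7 (503, 512, 471 and 590). The lower call is thus one of the lymphoid mean and not of each lymphoid cluster. For each 100 UMIs of Rps27 there were 2.90 ± 0.786 of Rps27l in T lymphocyte-like cells (n = 7) and 53.6 ± 30.2 in proximal tubule-like cells (n = 7), where libraries ranged from 25.7 to 106. The lower call held in every alternative run, with log2 values from -0.45 to -0.74. Rps19bp1 (-0.04) and Rpl7l1 (0.18) missed the threshold (adjusted p = 0.90 and 0.29 in edgeR).

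The paralogs Rpl22l1 and Rpl36al were higher in lymphoid clusters with their partners, by 1.44 and 0.93 on the log2 scale. Rpl6l, annotated as a processed pseudogene, was higher by 1.78. Its level in T lymphocyte-like cells ran from 73.6 to 1004 CPM between libraries, so its value is uncertain. Rpl22l1 ranged from 44.3 ± 14.5 to 147 ± 84.9 UMIs for each 100 of Rpl22, in macrophage-like (n = 7) and podocyte-like cells (n = 4). Rpl36al ranged from 37.1 ± 8.14 for each 100 of Rpl36a in T lymphocyte-like cells (n = 7) to 145 ± 94.9 in podocyte-like cells (n = 4). The podocyte-like values rest on few molecules, 78 of Rpl22l1 and 145 of Rpl36al.

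Rpl3l, at 483 UMIs in all, did not pass the low-count filter and is not among the 84 members tested. It was tested without the filter, with sums of at least 20 cells, and without the deepest 6% of cells, and edgeR called it lower in lymphoid clusters each time (adjusted p = 0.0011, 0.0037 and 0.0019). In none of the other 5 comparisons was it called in these settings. A UMI of Rpl3l was seen in 5.41% of neutrophil-like cells (4 of 74, median depth 1453.5 UMIs) and 5.10% of monocyte-like cells (28 of 549, depth 2652). The gene was seen in 2.13% of distal convoluted tubule-like cells (182 of 8544, depth 2438) and 0.0765% of T lymphocyte-like cells (1 of 1308, depth 1875). Monocyte-like cells ranged from 0 of 17 in library 3, where the exact 95% Clopper-Pearson interval reaches 19.5%, to 10.4% in library 7 (interval 4.59% to 19.4%). The intervals cover counting error only.

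To see which members departed from the set, each gene was also tested with the members' summed UMIs as the library size. On this scale 34 members were higher and 33 lower in lymphoid clusters, beside 9.22% and 80.7% of all genes tested. Rpl12 (log2 0.79), Rps24 (0.73), Rpl13a (0.70) and Rps27rt (0.68) were among those that gained most. Rps27l (-2.22), Rps19bp1 (-1.66), Rpl7l1 (-1.46) and Rpl41 (-0.74) were among those that lost most. Small subunit genes held 45.3% ± 0.953 of the set in T lymphocyte-like cells (n = 7) and 38.9% ± 0.653 in principal-like cells (n = 6), the ends of their range.

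**Figure D3:**
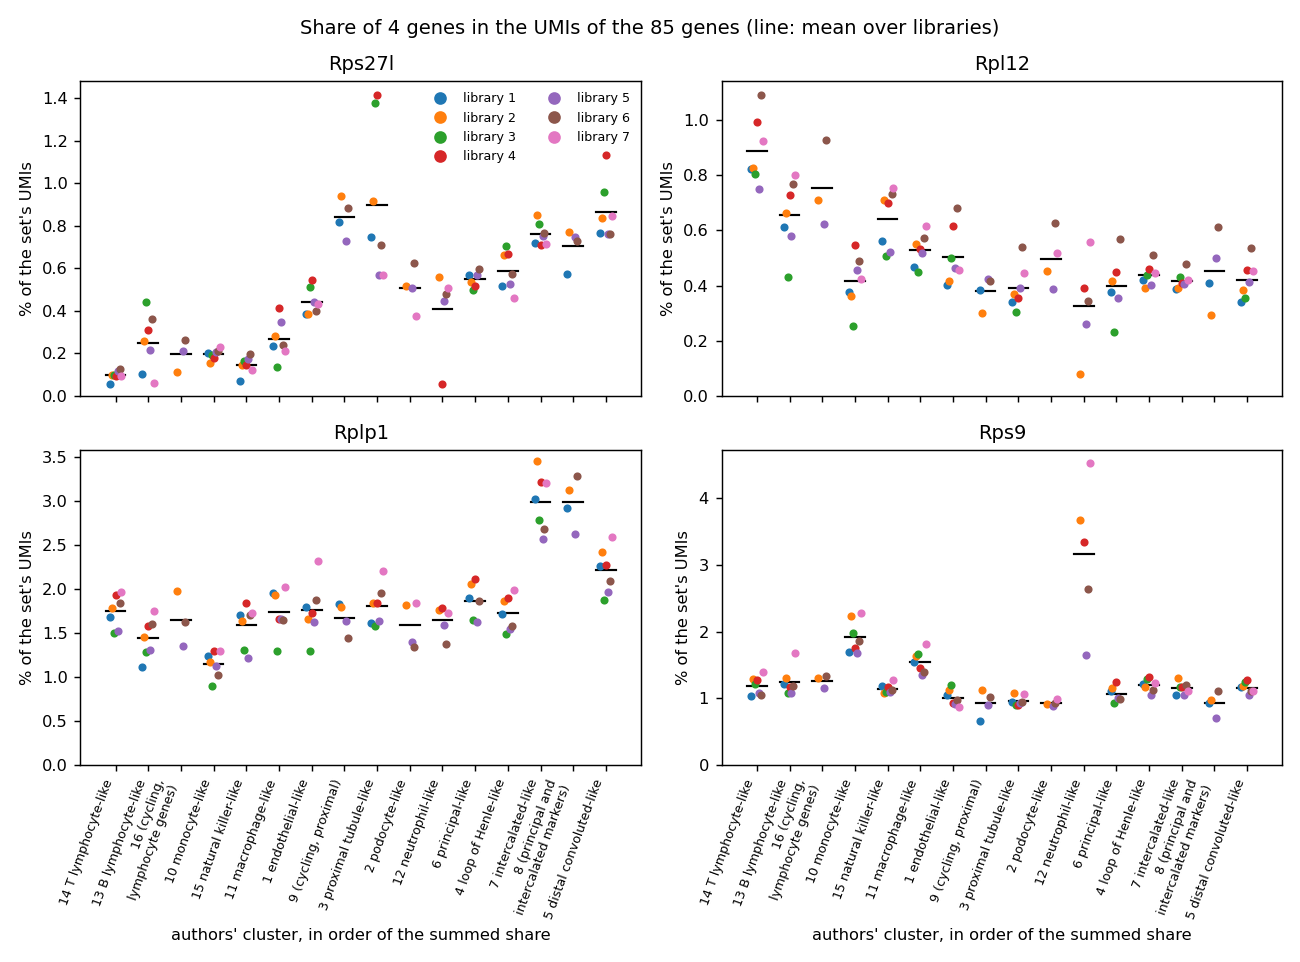
Share of Rps27l, Rpl12, Rplp1 and Rps9 in the UMIs of the 85 genes (y axes, percent) by cluster (x axis) with 1 point per library and a line at the mean. Rps27l is lowest in T lymphocyte-like cells, Rpl12 is higher in lymphocyte-like than in tubule cells, Rplp1 stands high in intercalated-like cells and Rps9 in neutrophil-like cells.

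Genes that work with the ribosome differed in direction, and their counts stand beside the 26.3% of all genes that were higher and the 40.1% that were lower. Of 18 translation factors and other TOP genes, 15 were higher and 1 lower in lymphoid clusters, including the elongation factors Eef1a1 (log2 1.31) and Eef2 (0.53) and the TOP gene Tpt1 (1.15). Fau and Gnb2l1, which encode proteins of the ribosome under other names, were higher (1.71 and 1.54). Of 17 ribosome biogenesis genes tested, 12 were higher and 1 lower, with Npm1 at 1.41, Ncl at 0.62 and Nop10 at -0.46. Among 10 Myc, mTORC1 and La-related regulators, 4 were higher and 5 lower, which is near those shares of all genes. Mitochondrial ribosomal protein genes, which serve the separate ribosome of that organelle, went the other way: 48 of 70 were lower and 2 higher, with a median of -0.51. All 13 genes of mitochondrial DNA were lower.

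Neutrophil-like cells were compared with the mean of the monocyte- and macrophage-like clusters. Their summed share was 5.99, 16.9, 10.3, 7.30 and 10.3% in libraries 2, 4, 5, 6 and 7, against 20.2, 20.1, 19.4, 18.0 and 21.7%. These values do not overlap, and library 4 (7 cells) stands above the other neutrophil-like values. Macrophage-like cells alone were at 14.9% in library 4, below its neutrophil-like cells, and above them in libraries 2, 5, 6 and 7. The difference from the mean of both clusters was -9.72 ± 4.11 points (n = 5), with an exact two-sided sign-flip permutation p = 0.0625, the smallest possible. The neutrophil-like cluster holds 74 cells, in which the markers S100a8, S100a9, Csf3r and Retnlg together took 148713 CPM. Their part in the share was not tested.

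In the gene-wise edgeR test 82 of 84 members were lower in neutrophil-like cells and 0 higher, at backgrounds of 11.8% lower and 2.46% higher. On simulated counts some unchanged genes with few UMIs were called in this comparison, so both backgrounds may hold false calls. The median log2 fold change was -1.58 for members and -0.74 for all genes. With sums of at least 20 cells only library 6 kept a neutrophil-like sum, and the medians were -1.66 and -2.35, so members then lay above all genes. In the main fit no member had a log2 fold change above 0, the highest being -0.50. DESeq2 size factors moved the median of all genes by 0.78 and that of members to -0.73. Rpl3, a large subunit protein near the catalytic centre, was at 430, 566, 761, 351 and 365 CPM in libraries 2, 4, 5, 6 and 7. In monocyte-like cells of libraries 1 to 7 Rpl3 was at 2252, 2644, 2179, 2508, 2331, 1827 and 1856, all above the neutrophil-like range. Its log2 fold change was -2.33 ± 0.236 SE (edgeR adjusted p = 3.4e-14). Rpl6l (-2.50), Rpsa (-2.22), Rpl10a (-2.14), Rpl12 (-2.11) and Rps18 (-2.10) were the other leading members among those with an average log2 CPM of at least 6. Rps19bp1, at a lower level, had a log2 fold change of -3.04 ± 0.965 SE (edgeR adjusted p = 0.020). Only 1 UMI of Rps19bp1 and 7 of Rpl6l were counted in the neutrophil-like sums, so both fold changes are uncertain. Translation factors fell with the members, 15 of 18 lower and 0 higher.

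In neutrophil-like cells 8 members were higher and 11 lower relative to the set, with 15.5% and 1.30% of all genes. Of the members that passed the test, Rps9, a small subunit protein, rose most (log2 0.82 ± 0.111 SE, edgeR adjusted p = 3.8e-09). It held 3.67, 3.34, 1.65, 2.64 and 4.53% of the set's UMIs in libraries 2, 4, 5, 6 and 7, against 1.68 to 2.28% in monocyte-like and 1.34 to 1.82% in macrophage-like cells. Library 5 lies within the macrophage-like range and below the monocyte-like one, and the other 4 libraries lie above both. Rpl3 (-0.82), Rpsa (-0.73), Rpl10a (-0.63), Rps18 (-0.61) and Rpl12 (-0.60) lost most among members that passed. Beyond these values but short of the threshold were Rpl7l1 (1.01), Rps19bp1 (-1.56) and Rpl6l (-0.89), with adjusted p = 0.34, 0.41 and 0.32 in edgeR. With sums of at least 20 cells, 3 were higher and 0 lower. Without library 2 the counts were 4 and 7, and without library 6 the higher count was 5.

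Proximal tubule-like cells were compared with the mean of the loop of Henle-, distal convoluted tubule-, principal- and intercalated-like clusters. The difference in share was 2.41, 2.86, -1.18, -0.806, 6.15 and 3.88 points in libraries 1 to 6. It was positive in 4 of 6 libraries, with a mean of 2.22 ± 2.81 and an exact two-sided sign-flip permutation p = 0.125. The spread came from the proximal side, at 10.7, 10.3, 6.20, 7.23, 14.3, 10.9 and 11.8% in libraries 1 to 7, while distal convoluted tubule-like cells stayed between 5.37 and 6.39%. Mitochondrial RNA in proximal tubule-like cells was highest in libraries 3 and 4 (22.3% in both) and lowest in library 5 (16.4%). Library 7, with a ribosomal protein gene share of 11.8%, was close to libraries 3 and 4 in mitochondrial RNA, at 22.1%. The part of mitochondrial RNA in the share was not tested.

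**Figure D4:**
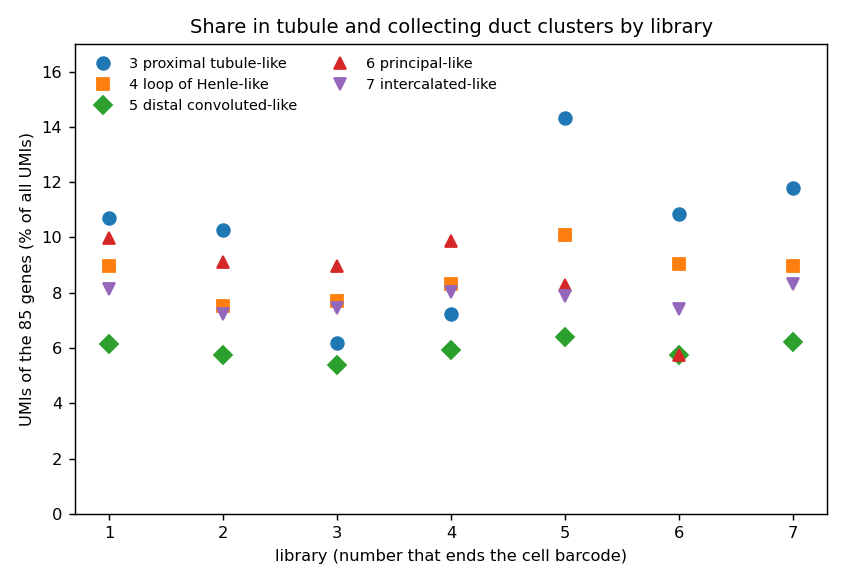
Share of the 85 genes (y axis, percent of UMIs) in the 5 tubule and collecting duct clusters by library (x axis). Proximal tubule-like cells run from 6.20% to 14.3% and fall among the distal clusters in libraries 3 and 4, while distal convoluted tubule-like cells stay between 5.37 and 6.39%.

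In the gene-wise edgeR test 77 of 84 members were higher in proximal tubule-like cells and 0 lower, against 29.1% and 31.4% of all genes. In the main fit the lowest fold change of any member was 0.16, so none was lower there before adjustment either. Leaving out 1 library gave 59 to 81 members higher and 0 lower. The median was 0.57 for members and -0.04 for all genes. DESeq2 moved the median of all genes by -0.35, and that of members was then 0.31. Rps2 (log2 1.16 ± 0.118 SE, edgeR adjusted p = 9.6e-16), Rpl10 (1.15), Rps19 (1.07), Rpl28 (0.87), Rps27l (0.84) and Rpl4 (0.84) led. Rps2, a small subunit protein, was at 1963, 2216, 1612, 1767, 2650, 995 and 2425 CPM in proximal tubule-like cells of libraries 1 to 7. In distal convoluted tubule-like cells Rps2 was at 835, 991, 1130, 1087, 816, 430 and 1020. Each library was higher on the proximal side, also libraries 3 and 4, and library 6 was lowest in both cell types. As for departures from the set, 15 members were higher and 15 lower (14.6% and 56.1% of all genes), with Rps2 at 0.63, Rpl10 at 0.61 and Rps19 at 0.53. Rps21 (-0.40), Rpl36 (-0.39), Rps14 (-0.38), Rpl21 (-0.35) and Rplp2 (-0.32) lost most.

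**Figure D5:**
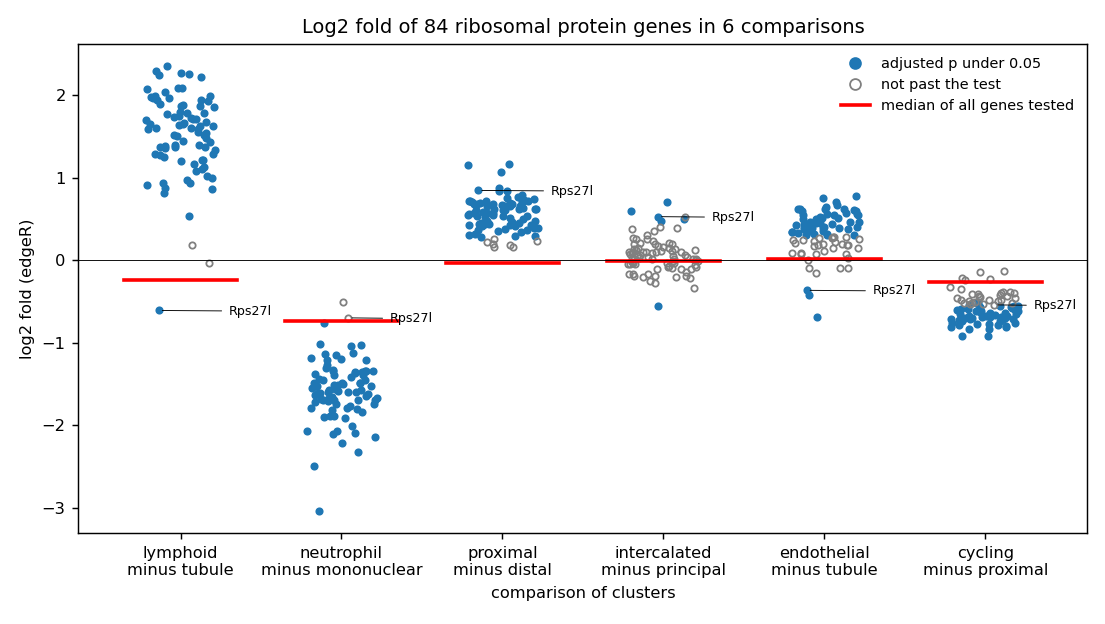
Log2 fold change (y axis, edgeR) of 84 members in 6 comparisons (x axis), filled where the adjusted p is under 0.05, with a red line at the median of all 7952 genes tested. Most members lie above the line in the lymphoid comparison and below it in the neutrophil comparison, at medians of 1.59 and -1.58, and Rps27l is marked.

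Within the collecting duct, the share of members called in either direction did not exceed that of all genes, and the lower summed share of intercalated-like cells in 5 of 6 libraries did not pass the test. Intercalated- minus principal-like share was -1.85, -1.89, -1.50, -1.85, -0.397 and 1.66 points in libraries 1 to 6, a mean of -0.97 ± 1.41 (exact two-sided sign-flip permutation p = 0.125). The gene-wise edgeR test called 5 of 84 members higher and 1 lower, against 12.7% and 12.3% of all genes. Rplp1, a stalk protein, was at 2458, 2499, 2075, 2580, 2030, 1986 and 2664 CPM in intercalated-like cells of libraries 1 to 7. In principal-like cells of libraries 1 to 6 Rplp1 was at 1901, 1877, 1480, 2091, 1342 and 1066. Within each of those 6 libraries the intercalated-like value was higher (log2 0.70 ± 0.178 SE, edgeR adjusted p = 0.0010). Rps2 (0.59), Rps27l (0.53) and Rpl10 (0.48) were also higher. Without library 3, 6 or 7 the higher count was 3, 1 and 2.

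Rpl7, a large subunit protein, was lower, at 593, 564, 637, 653, 572, 566 and 634 CPM in intercalated-like cells of libraries 1 to 7. Principal-like cells had 999, 1054, 1204, 1544, 859 and 585 in libraries 1 to 6, and only library 6 falls within the intercalated-like range. The log2 fold change of Rpl7 was -0.55 ± 0.169 SE (edgeR adjusted p = 0.0078), and without library 2 it was -0.46 (adjusted p = 0.10). The direction of the other members followed the scaling: with library totals 2 were higher and 13 lower. Relative to the set, 6 were higher and 5 lower (9.62% and 11.5% of all genes), so these shares of members did not exceed those of all genes either. Rplp1 held 3.02, 3.45, 2.78, 3.21, 2.57, 2.69 and 3.20% of the set in intercalated-like cells, above the 1.62 to 2.12% of principal-like cells in every library. Its relative log2 fold change was 0.65 (edgeR adjusted p = 3.8e-08) and that of Rpl7 was -0.59 (1.5e-06). Of the 5 lower, Rpl21 (-0.40), Rpl22 (-0.33), Rpl36a (-0.32) and Rpl37 (-0.25) were the others, and leaving out any of libraries 1 to 6 left 2 or 3. Mitochondrial ribosomal protein genes behaved differently here, with 37 of 70 higher and 0 lower in intercalated-like cells, beside 12.7% and 12.3% of all genes.

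Endothelial-like cells exceeded the tubule mean in all 6 libraries, by 6.52, 4.98, 2.51, 3.10, 4.53 and 6.54 points in libraries 1 to 6. The mean was 4.70 ± 1.68 (exact two-sided sign-flip permutation p = 0.03125, 0.0938 adjusted over 6 comparisons). In the gene-wise edgeR test 50 of 84 members were higher and 3 lower, against 25.8% and 22.3% of all genes, with medians of 0.34 and 0.01. Among the leading members were Rps27rt (log2 0.75), Rps19 (0.70 ± 0.118 SE, edgeR adjusted p = 1.8e-07), Rps3 (0.67), Rps4x (0.65) and Rps16 (0.62). Rps19, a small subunit protein, was at 3217, 2759, 1796, 2104, 2480.0, 2528 and 2767 CPM in endothelial-like cells and at 837, 934, 810.1, 910.3, 857, 846 and 934 in distal convoluted tubule-like cells of libraries 1 to 7. No value overlaps between those cell types. Distal convoluted tubule-like cells had the lowest summed share of all clusters (5.93%). Rps19 was higher in proximal tubule-like cells than in the distal clusters (log2 1.07), and its proximal values are not set beside these.

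The 3 lower members were Rps19bp1 (-0.68), Rpl36al (-0.42) and Rps27l (-0.37), none of them a standard subunit. Without library 4, 6 or 7 the lower count was 1, and with library totals it was 0, Rps27l then being at 0.0090. Library totals moved the median of all genes by 0.36. Against the set as a whole 22 members were higher and 15 lower, with 18.0% and 37.6% of all genes. Rps19bp1 (-1.07), Rpl36al (-0.75), Rps27l (-0.70) and Rpl41 (-0.42) were among those that lost most. This comparison and the lymphoid one use the same tubule sums.

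Cycling cells with proximal tubule genes (cluster 9) did not differ detectably from proximal tubule-like cells in the summed share. Cluster 9 is unevenly sampled, with 9, 28, 552 and 6 cells in libraries 1, 2, 5 and 6. The differences were -0.370, 0.894, -1.999 and 1.19 points in libraries 1, 2, 5 and 6, with a mean of -0.07 ± 1.45 and an exact two-sided sign-flip permutation p = 1. The gene-wise edgeR test called 53 members lower and 0 higher, against 16.5% and 6.90% of all genes, with medians of -0.59 and -0.26. No member had a fold change above 0, the highest being -0.13. That result followed the scaling: DESeq2, its size factors and library totals each called 0 lower, and library totals put the median at 0.13 after moving that of all genes by 0.49. Without library 1, 5, 6 or 7 the count was 18, 28, 4 and 26. Without library 5 the median of members exceeded that of all genes by 0.04. Relative to the set, only Rps16 was higher (log2 0.43, edgeR adjusted p = 0.0044) and 0 members were lower, with 8.54% and 4.16% of all genes. Without library 6 the higher count was 0.

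Members with and without the annotated start-site run had similar RNA fold changes. The run within 10 bases was also in 32.5% of all genes with a window, so this split does not cleanly separate TOP genes from others. Translation, which the motif controls, was not measured. In lymphoid clusters the 34 members tested with the run within 10 bases had a median log2 fold change of 1.65 and the 29 without it 1.52. In neutrophil-like cells the medians were -1.52 and -1.58, and in proximal tubule-like cells 0.58 and 0.63. In Rps27l, the member called lower in the lymphoid comparison, the nearest such run begins 1 base after the annotated start, as its window above shows.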

How the data were processed

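The deposited table holds raw UMI counts per gene and cell with the authors' cluster number, per the file headers; the submitters' processing notes name Cell Ranger 1.3, STAR and GRCm38. Cells were filtered and clustered by the authors before deposit. No doublet caller was run; leaving out the deepest 6% of cells of each library was an alternative.

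For testing, the UMIs of all cells of a cluster in a library were added up if it had 5 cells or more, which gave 96 sums of 10597 to 25388200 UMIs. They were tested with edgeR 4.0.16 (TMM, filterByExpr, cluster and library terms, Benjamini-Hochberg over 7952 genes, adjusted p under 0.05), and again with the members' UMIs as library size. Alternatives were DESeq2 1.42.0, other scalings and filters, and leaving out libraries. On simulated counts the test held its level with the true scaling for genes with UMIs in every compared cluster, while genes with few gave some false calls, above all in the neutrophil comparison. TMM shifted unchanged genes in several comparisons, so member medians stand beside those of all genes. Shares were compared within libraries by exact sign flips. The sign-flip p-values measure the spread between the libraries compared, whose tie to single mice is not given in the sources used here. The main edgeR p-values rest on each gene's residual spread over all 96 sums (74 residual degrees of freedom), which all clusters share. They are thus not set by the spread of the compared clusters alone, and may be too small where those vary more. The SD of the summed share was 2.74 points in proximal tubule-like and 0.348 in distal convoluted tubule-like cells.

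Members and lists were chosen with earlier results of these data known. Named by rule were, per comparison, up to 6 members per direction (5 relative to the set) of the largest change past the test with an average log2 CPM of at least 6, all paralogs and stalk genes, and up to 4 abundant genes per list. Members shown by library and the printed windows were picked after their values were seen. Some genes that the rule names are not reported here. Protein sequences were not analysed here.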

Additional observations from a re-analysis of the deposited data

Results flagged for a closer look

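In T lymphocyte-like cells library 1 stood apart, with 38.2% of UMIs in ribosomal protein genes against 29.6% to 32.2% in the other 6 libraries. The mean without it was 31.2%. The lymphoid minus tubule difference of library 1 stood apart likewise, at 23.0 points against 17.2 to 18.8, and the mean without it was 18.2. Both rest in part on the same cells. Of 21 groups of libraries examined these 2 were marked, and chance marks about 1 in 20.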

How the results depend on the processing

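With nuclear UMIs as the denominator, the shares of clusters 1, 2, 4, 5, 6, 7, 8, 9, 14 and 15 became 15.02, 11.9, 11.4, 8.53, 10.7, 10.4, 8.47, 13.99, 35.7 and 25.5%. The other 197 recomputed cluster shares stayed within the SD over libraries. The cycling minus proximal share difference changed sign to 0.541 without the deepest 6% of cells, and ranged from -0.492 to 0.572 when 1 library was left out; the other 5 share differences kept their sign.
In lymphoid clusters 2 in place of 1 member was lower without the low-count filter, with sums of at least 20 cells, and without the deepest cells, the second being Rpl3l, which those settings let in; the higher count was 81 without any 1 library. For intercalated against principal, DESeq2 called 3 higher and 22 lower, its size factors 2 and 14, and library totals 2 and 13. The lower count was 0 without the filter or the deepest cells and 5 in a fit of the compared clusters alone. Leaving out 1 library gave 1 to 5 higher and 0 to 1 lower. For endothelial cells library totals called 81 higher and 0 lower, 32 were higher without the deepest cells, and leaving out 1 library gave 1 to 3 lower. For cycling cells DESeq2 and its size factors called 0 lower, and library totals 4 higher and 0 lower. DESeq2 called 1 higher. The lower count was 9 without genes of mitochondrial DNA, 3 with at least 20 cells, 12 without the deepest cells and 4 to 63 without 1 library.
Relative to the set, neutrophil counts were 3 higher and 0 lower with at least 20 cells, and 4 to 11 and 7 to 11 without 1 library. The intercalated lower count was 2 without the filter or the deepest cells and 2 to 4 without 1 library. The cycling higher count was 0 without the deepest cells and 0 to 1 without 1 library. Without the library term (no replicate block), 1 member was higher in intercalated cells and 27 lower in cycling cells. Relative to the set that fit called 5 higher and 7 lower in neutrophils, 2 and 2 in intercalated and 14 higher in endothelial cells. The endothelial fold change of Rps27l changed sign to 0.0090 with library totals.
DESeq2 moved the split of higher against lower calls of all genes: 36.2% higher in lymphoid (main 39.6%), 76.4% in neutrophil (17.3%), 29.0% in proximal (48.1%), 31.0% in intercalated (50.9%), 63.0% in endothelial (53.7%) and 77.0% in cycling cells (29.5%). Member minus all-gene medians of 1.79 to 2.00 (lymphoid), 0.52 to 0.70 (proximal) and 0.23 to 0.39 (endothelial) kept their sign. The other 3 changed sign: neutrophil from -1.08 to 0.68 (the last with sums of at least 20 cells), cycling from -0.49 to 0.04 (without library 5) and intercalated from -0.04 (library totals) to 0.15. Small clusters limit precision, above all the 74 neutrophil-like cells. Cluster 9 has 552 of its 601 cells in library 5.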
